A study of Mus musculus with 6 samples.

Results

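The genes described here are 10 markers of bile duct cells, liver progenitor cells, fetal liver and liver tumours: Afp, Gpc3, H19, Igf2, Cd44, Prom1, Sox9, Epcam, Krt19 and Krt7. They were taken by symbol from a table of 32212 rows of gene counts, and all 10 were found in it. Their choice was made with earlier results of these data known. The table holds liver RNA of 6 male C57BL/6 mice on a normal chow diet, 3 WT and 3 CgA-KO, each with an age of 2 yr in its title. CgA-KO mice lack chromogranin A (CgA), the prohormone encoded by Chga. No other treatment is named for either genotype, and each library came from a piece of the liver of 1 mouse. All liver cell types therefore contributed RNA, and a difference in a marker can come from more or fewer cells of a type or from more or less RNA per cell, which cannot be told apart.

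Bile ducts are lined by cholangiocytes, epithelial cells that carry keratins 7 and 19 and the adhesion protein EpCAM, which adult hepatocytes lack or hold at low levels. In an injured liver, cells at the small ducts can multiply and express SOX9, EpCAM and prominin 1 in what is called a ductular reaction. Alpha-fetoprotein, glypican 3, H19 and IGF2 are made by the fetal liver, are switched off after birth, and can return in regenerating liver and in liver tumours. CD44 is found on progenitor and tumour cells, and also on most white blood cells.

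The libraries held between 10558616 and 31087453 counts. Chga had 0 counts in all 6 libraries, so the knocked-out gene cannot check the genotype labels in this tissue. Levels are given as CPM, the counts of a gene relative to the library total after edgeR's TMM scaling, which corrects for differences in RNA composition, and a count of 3, taken as the lowest level that can be seen, corresponds to between 0.0951 and 0.269 CPM over the libraries. Of 9 hepatocyte markers measured, edgeR called 0 and DESeq2 1, Ttr, which encodes transthyretin (log2 of the CgA-KO to WT ratio -0.80, DESeq2 adjusted p = 0.0488). Their summed level lay between 55590 and 95170 CPM in WT and between 46870 and 82730 CPM in CgA-KO livers, so hepatocyte RNA was abundant in each library. Of 7 pancreas and gut markers, 0 passed the filter on low counts, and Prss2, Cpa1, Pnlip and Cdx2 were at 0 in all libraries. The 10 genes were low in comparison: apart from Cd44 and Sox9, none exceeded 90 counts in any library, and the counts of 8 of them summed over all 6 libraries to between 105 and 171. The precision for those 8 is limited accordingly.

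In edgeR's quasi-likelihood test across 13867 genes, 2 of the 10 markers were higher in CgA-KO livers at an adjusted p under 0.05, Cd44 and H19, and 0 were lower. Over all genes tested, 12.4% were called in either direction and 8.6% were called higher in CgA-KO livers. With DESeq2, the same 2 markers were called, where 17.2% of all genes were. The 3 libraries of one genotype lay above the 3 of the other in 5 of the 10 markers, Cd44, H19, Igf2, Sox9 and Krt7, against 33.6% of all genes tested. All 10 markers passed the filter on low counts, but H19 did so through the CgA-KO libraries alone, with 0 WT libraries at or over the filter's cutoff of 0.436 CPM, which applies to CPM before TMM scaling. The 10 markers had a median log2 ratio (CgA-KO over WT, as fitted by edgeR) of 0.85, while the median of all genes was -0.01. Afp, Gpc3, Prom1, Epcam and Krt19 overlapped between the genotypes.

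**Figure D1:**
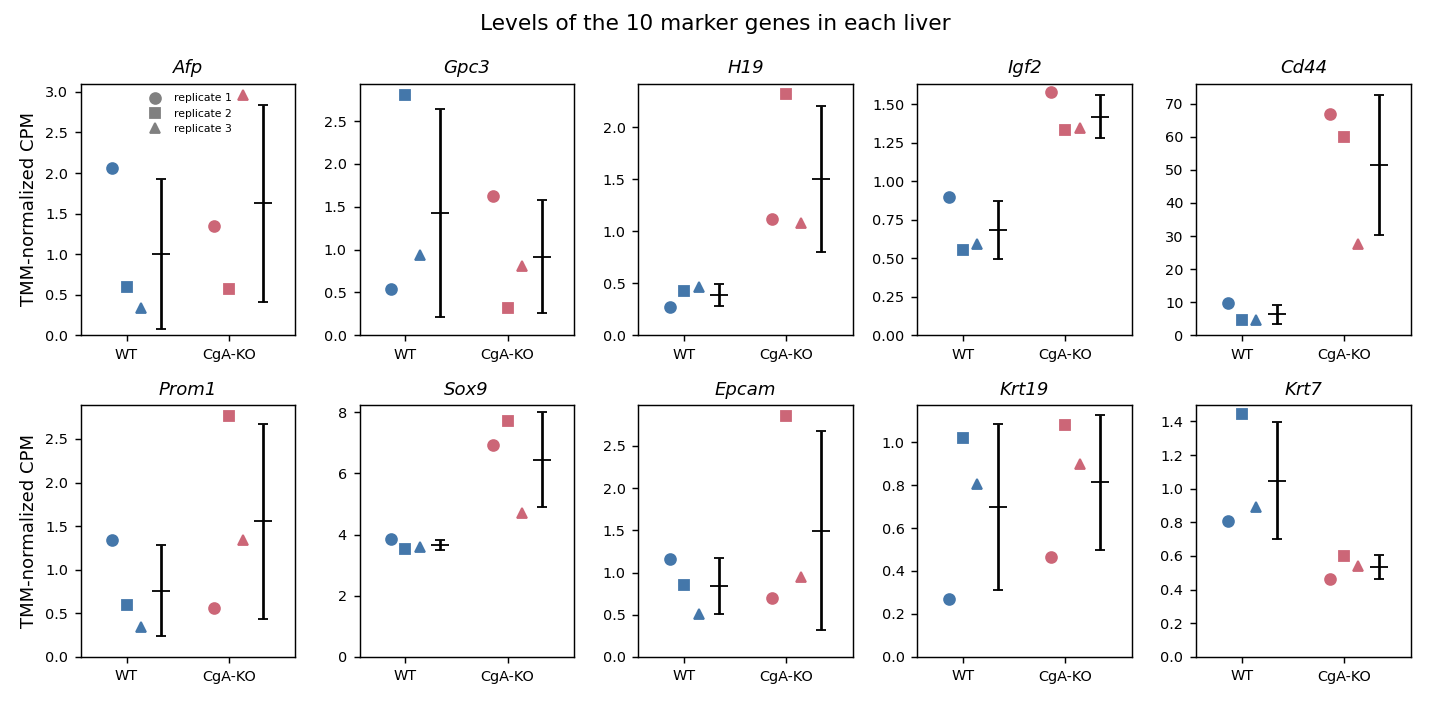
TMM-normalized CPM (vertical axis, a separate linear scale from 0 for each gene) of the 10 markers in 3 WT (blue) and 3 CgA-KO (red) livers, with a symbol for each replicate and the mean ± SD in black. The 3 Cd44 values of CgA-KO livers, from 27.5 to 67.1 CPM, all lie above the WT values, while Prom1 and Epcam are highest in CgA-KO replicate 2.

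Cd44 encodes the cell surface receptor for hyaluronan, a sugar polymer of the extracellular matrix. It lies on chromosome 2 of GRCm38 from 102811141 to 102901665, on the minus strand. Cd44 reached 9.58, 4.64 and 4.57 CPM across WT replicates 1, 2 and 3, on 107, 109 and 108 counts. For Cd44, CgA-KO replicates 1, 2 and 3 gave 67.1, 60.1 and 27.5 CPM, on 1445, 1894 and 614 counts. The lowest CgA-KO liver was thus well above the highest WT liver, and the CgA-KO livers also differed among themselves. The mean rose from a WT value of 6.27 ± 2.87 CPM to 51.6 ± 21.1 CPM in CgA-KO livers (SD, n = 3 each), which is 8.23-fold. Cd44 had a log2 ratio of 3.07 (standard error 0.41, edgeR adjusted p = 0.00484), larger than the spread between livers. In DESeq2 it was 3.03 (DESeq2 adjusted p = 7.09e-12). Over the 6 fits that each omitted 1 library, this ratio ran from 2.86 to 3.52 and its edgeR adjusted p from 0.00133 to 0.0429. Cd44 had the highest level per kilobase of exon among the 10 markers in both genotypes, 0.925 CPM per kilobase in WT and 7.61 in CgA-KO livers.

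The stretch of 250 bases before the start of Cd44 is shown because this was the marker with the largest difference. It was read from the RefSeq promoter table of GRCm38.p6, chr2:102901666-102901915, minus strand. It held none of the 4 motifs that were searched on both strands in these windows: the TATA box TATAAA, the GC box GGGCGG, the HNF1 half-site GTTAAT and the AP-1 site TGANTCA. Of 32851 such windows, 12.4% hold the first, 32.7% the second, 6.43% the third and 6.75% the fourth.
Cd44: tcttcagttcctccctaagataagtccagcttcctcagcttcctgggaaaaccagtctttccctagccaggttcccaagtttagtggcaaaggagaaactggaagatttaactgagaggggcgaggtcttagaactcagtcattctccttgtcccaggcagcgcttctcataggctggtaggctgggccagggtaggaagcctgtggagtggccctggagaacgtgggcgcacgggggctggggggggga

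CD44 is also carried by most white blood cells, and most white blood cell markers on the list used here moved with it. Of 13 leukocyte markers, 11 rose in CgA-KO livers and 0 fell in edgeR's quasi-likelihood test, with a median log2 ratio of 2.78. Their summed level was between 87.5 and 292.6 CPM in WT and between 857.8 and 999.9 CPM in CgA-KO livers. No marker of that list was at 0 in all libraries. Those not called were the B cell gene Ms4a1 (log2 ratio -0.03, edgeR adjusted p = 0.985) and Ly6c2 (4.41, edgeR adjusted p = 0.0715). The called genes with the largest change were Nkg7 of cytotoxic lymphocytes (3.86), Cd3e (3.60) and Cd8a (3.16) of T cells, Laptm5 of blood cells in general (3.20) and Csf1r of macrophages (2.96). The call of Laptm5 held in every fit that left out 1 library. Cd3e lost its call without WT replicate 2 or WT replicate 3. Nkg7, Csf1r and Cd8a lost theirs in the same 2 fits and also without CgA-KO replicate 2, as Nkg7 and Cd8a did without WT replicate 1 and Csf1r and Cd8a without CgA-KO replicate 1. Nkg7 and Cd8a were also not called with limma-voom or the replicate number as a block. Cd8a was not called with library size alone or upper-quartile factors. With a filter of at least 1 count in each library, Nkg7, Csf1r and Cd8a were not called. With a total of at least 1 count, Nkg7, Csf1r, Cd8a and Cd3e were not called. The number of leukocyte markers called was 3 without WT replicate 2, 4 without WT replicate 3 and 6 without CgA-KO replicate 2. It was also 3 when genes with a total of at least 1 count were tested, 7 with the replicate number as a block and 3 at a threshold of 0.01.

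Ptprc, the common leukocyte antigen CD45, was at 23.5, 4.81 and 7.41 CPM in WT replicates 1, 2 and 3 and at 72.2, 75.0 and 50.2 CPM in CgA-KO replicates 1, 2 and 3. Ptprc had a log2 ratio of 2.503 (standard error 0.52, edgeR adjusted p = 0.0179), a call that was lost without WT replicate 2, WT replicate 3, CgA-KO replicate 1 or CgA-KO replicate 2. The Cd44 counts per Ptprc count were 0.408, 0.965 and 0.617 in WT replicates 1, 2 and 3 and 0.929, 0.801 and 0.548 in CgA-KO replicates 1, 2 and 3. On this ratio the genotypes overlapped, whereas they did not on either gene alone. The liver with the most Cd44 among WT, replicate 1, was also the one with the most Ptprc. Among CgA-KO livers, Cd44 was highest in replicate 1 (67.1 CPM) and Ptprc in replicate 2 (75.0 CPM). The part of leukocytes in the Cd44 difference was not tested.

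**Figure D2:**
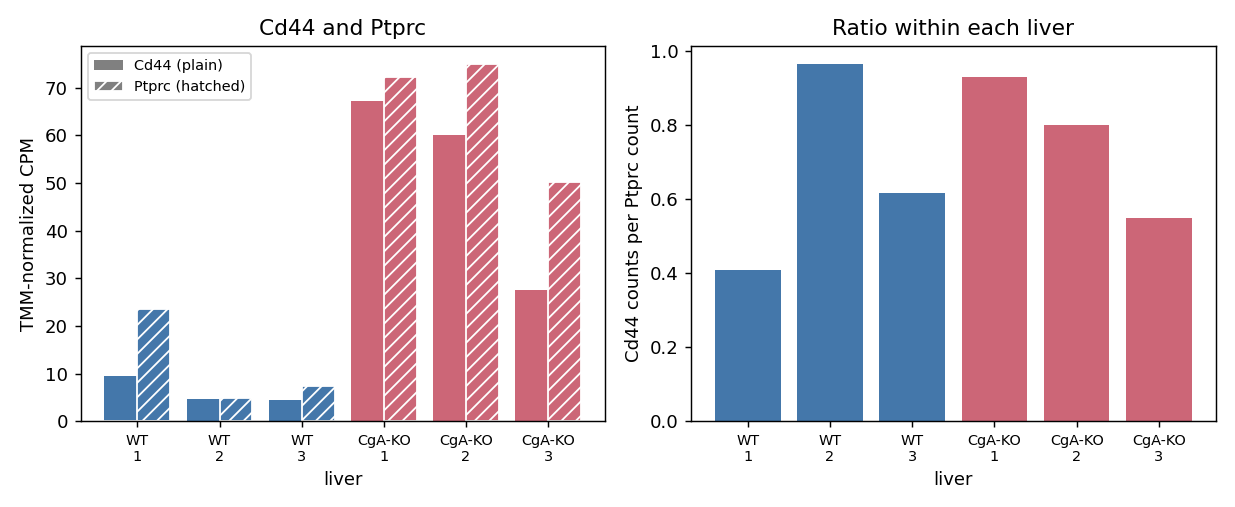
Left, TMM-normalized CPM of Cd44 (plain bars) and Ptprc (hatched bars) in each of 3 WT (blue) and 3 CgA-KO (red) livers; right, the Cd44 counts divided by the Ptprc counts of the same liver. Both genes are higher in each CgA-KO liver than in any WT liver, while the ratio runs from 0.408 to 0.965 in WT and from 0.548 to 0.929 in CgA-KO livers.

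Genes of hyaluronan handling and other partners of CD44 were also counted. Of 18 genes, 14 were tested, and 8 of them rose in CgA-KO livers and 0 fell (median log2 ratio 1.68). The largest changes were those of Lyve1, a hyaluronan receptor of lymphatic and sinusoidal endothelium (2.81), Cd74, the invariant chain of MHC class II that pairs with CD44 as a receptor (2.76), Msn, which ties CD44 to the cell skeleton (2.56), Srgn, a proteoglycan of blood cell granules (2.44), and the protease gene Mmp9 (2.35). Cd74, Msn and Srgn are themselves genes of blood cells. Lyve1 had 19, 38 and 22 counts in the WT and 241, 294 and 200 in the CgA-KO libraries, replicates 1 to 3. The hyaluronan synthase genes Has1, Has2 and Has3 did not pass the filter, and Has2 was at 0 in all libraries. Lyve1, Msn and Srgn kept the call in every fit that left out 1 library. Cd74 and Mmp9 each lost theirs without WT replicate 2, WT replicate 3, CgA-KO replicate 1 or CgA-KO replicate 2. The number of genes that rose was 3 without WT replicate 3 or CgA-KO replicate 2, 4 without CgA-KO replicate 1 or WT replicate 2, and 3 at a threshold of 0.01. Without WT replicate 2, 1 gene was called lower, the hyaluronidase gene Hyal1 (log2 ratio -1.01, edgeR adjusted p = 0.0406).

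H19 is a long non-coding RNA of an imprinted cluster, transcribed from the maternal chromosome and abundant in fetal liver. It lies on chromosome 7 of GRCm38 from 142575529 to 142578143, on the minus strand. H19 reached 0.269, 0.425 and 0.466 CPM across WT replicates 1, 2 and 3, on 3, 10 and 11 counts. For H19, CgA-KO replicates 1, 2 and 3 gave 1.11, 2.31 and 1.08 CPM, on 24, 73 and 24 counts. Each CgA-KO liver was above each WT liver, and replicate 2 was the highest. The WT mean was 0.387 ± 0.104 CPM and the CgA-KO mean 1.502 ± 0.705 CPM (SD, n = 3 each), which is 3.88-fold. WT replicate 1 was at the count of 3 that is taken as the lowest level that can be seen. With 0 WT libraries at or over the filter's cutoff of 0.436 CPM, the size of this fold is uncertain. H19 had a log2 ratio of 1.91 (standard error 0.51, edgeR adjusted p = 0.0430). DESeq2 also called it (1.90, DESeq2 adjusted p = 0.0286), while limma-voom did not (1.82, limma-voom adjusted p = 0.0638). The direction held with each library left out, from 1.48 without CgA-KO replicate 2 to 2.13 without CgA-KO replicate 3. None of these 6 fits called H19, with an edgeR adjusted p from 0.0617 without CgA-KO replicate 3 to 0.138 without WT replicate 3, so the call depended on having all 6 libraries.

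Igf2 encodes insulin-like growth factor 2, the fetal growth factor transcribed from the paternal chromosome of the same cluster, 72622 bases away from H19 (chromosome 7 from 142650766 to 142666816). Igf2 reached 0.896, 0.553 and 0.593 CPM across WT replicates 1, 2 and 3, on 10, 13 and 14 counts. For Igf2, CgA-KO replicates 1, 2 and 3 gave 1.58, 1.33 and 1.34 CPM, on 34, 42 and 30 counts. The genotypes did not overlap, and the 3 CgA-KO livers were close to each other. The means were 0.681 ± 0.187 and 1.42 ± 0.139 CPM (SD, n = 3 each), 2.08-fold apart. Its log2 ratio of 1.09 (standard error 0.42) did not pass the threshold in edgeR's quasi-likelihood test (adjusted p = 0.124), nor in DESeq2 (adjusted p = 0.173). The exact permutation test of the 3 CPM values against 3 gave p = 0.1, two-sided, the smallest that this design allows, as it also did for H19, Cd44, Sox9 and Krt7.

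Both transcripts carry microRNA precursors, miR-675 in H19 and miR-483 in Igf2, and their mature sequences are shown because they lie within the 2 transcripts. They were taken from RefSeq on GRCm38.p6, with the seed, bases 2 to 8, in capitals. The 4 sequences have different seeds. The poly(A)-selected libraries do not measure mature microRNAs, and the rows Mir675 and Mir483 were at 0 in all 6 libraries.
mmu-miR-675-5p: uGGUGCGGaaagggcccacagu
mmu-miR-675-3p: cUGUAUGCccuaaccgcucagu
mmu-miR-483-5p: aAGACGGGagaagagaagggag
mmu-miR-483-3p: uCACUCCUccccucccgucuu

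The neighbours of H19 and Igf2 on chromosome 7 were read as well, in a window of 500000 bases on each side chosen after the values of both genes were known. Besides H19 and Igf2, 10 of its genes were tested, and 1 was called, Lsp1, a gene of white blood cells, with a log2 ratio of 2.31 (edgeR adjusted p = 0.0496). Mrpl23, the closest tested gene on the H19 side, had a log2 ratio of 0.29 (edgeR adjusted p = 0.627). The closest on the Igf2 side, Tspan32, had one of 2.01 (edgeR adjusted p = 0.0926).

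Of the other imprinted genes, 13 of 17 were tested, with a median log2 ratio of 0.34. Of these, 1 was higher and 1 lower, where 12.4% of all genes tested were called. Dcn, which encodes the matrix proteoglycan decorin and is also on the stellate and fibroblast list, rose from 108.2 ± 25.1 to 215.8 ± 60.8 CPM (0.99, edgeR adjusted p = 0.0436). Peg10, a gene of retrotransposon origin that is active in placenta and in liver tumours, fell to 0.418 ± 0.131 CPM from 2.31 ± 0.288 CPM in WT livers (log2 ratio -2.45, edgeR adjusted p = 0.0108). Peg10 had 23, 53 and 62 counts in the WT libraries and 11, 15 and 6 in the CgA-KO libraries, in order of replicate. Dcn lost the call without WT replicate 1, WT replicate 3, CgA-KO replicate 1 or CgA-KO replicate 2, and Peg10 without WT replicate 3.

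Among receptors and binding proteins of the IGF system, 15 of 16 genes were tested (median log2 ratio -0.11). While 12.4% of all genes tested were called, 2 on this list were higher and 0 were lower. Both called genes encode proteins that bind IGFs in plasma. Igfbp1 rose from 10.9 ± 7.07 to 95.9 ± 60.3 CPM (3.16, edgeR adjusted p = 0.0125) and Igfbp3 from 10.9 ± 3.02 to 46.5 ± 13.2 CPM (2.10, edgeR adjusted p = 0.00484). Igfbp1 was not called without WT replicate 2 or WT replicate 3, at 0.01, or when genes with a total of at least 1 count were tested. Igf1, the main IGF of the adult liver, had a log2 ratio of -0.08 (edgeR adjusted p = 0.862), and Igf2r, the receptor that takes up and degrades IGF2, one of -0.11 (edgeR adjusted p = 0.709). Igf1r, the signalling receptor, had one of 1.01 (edgeR adjusted p = 0.0951).

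Afp encodes alpha-fetoprotein, the main plasma protein of the fetus and a serum marker of liver cancer. It lies on chromosome 5 of GRCm38 from 90490737 to 90508907. Afp reached 2.06, 0.596 and 0.339 CPM across WT replicates 1, 2 and 3, on 23, 14 and 8 counts. For Afp, CgA-KO replicates 1, 2 and 3 gave 1.35, 0.571 and 2.96 CPM, on 29, 18 and 66 counts. The genotypes overlapped, with a high liver in each of them, WT replicate 1 and CgA-KO replicate 3. Afp had a log2 ratio of 0.79 (standard error 0.78, edgeR adjusted p = 0.551), and it ran from 0.03 without CgA-KO replicate 3 to 1.82 without WT replicate 1. The 3 tested relatives of Afp, Alb, Afm and Gc, were not called either. Alb, which encodes albumin and replaces Afp as the main plasma protein after birth, had a log2 ratio of -0.23 (edgeR adjusted p = 0.743).

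The 250 bases before the start of Afp in the RefSeq table of GRCm38.p6, chr5:90490464-90490713, plus strand, are shown for comparison with Cd44, since this gene is read in fetal hepatocytes. This RefSeq start lies before the start of Afp given above, 90490737, which is from GENCODE. For Cd44 the window adjoins the GENCODE start, so the 2 windows are not placed alike. Capitals mark the HNF1 half-site GTTAAT and the TATA box TATAAA, which did not overlap each other. HNF1 is a hepatocyte transcription factor that binds the Afp promoter. The GC box and the AP-1 site were not among its letters. In all, 7 of the 10 markers had an entry in the promoter table, with 11 windows, and Afp held the only HNF1 half-site and the only TATA box among them.
Afp: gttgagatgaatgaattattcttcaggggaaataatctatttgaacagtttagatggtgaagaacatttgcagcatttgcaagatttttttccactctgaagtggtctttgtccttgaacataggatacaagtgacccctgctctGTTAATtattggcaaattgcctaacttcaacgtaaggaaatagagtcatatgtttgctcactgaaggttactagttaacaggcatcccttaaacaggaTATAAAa

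Gpc3 encodes glypican 3, a heparan sulfate proteoglycan of the cell surface used to stain liver cancers (chromosome X from 52272426 to 52613950). Gpc3 reached 0.537, 2.81 and 0.932 CPM across WT replicates 1, 2 and 3 and 1.62, 0.317 and 0.807 CPM in CgA-KO replicates 1, 2 and 3. WT replicate 2 was far above the other WT livers, with 66 counts against 6 and 22. Gpc3 had a log2 ratio of -0.70 (standard error 0.73, edgeR adjusted p = 0.576), and without WT replicate 2 its direction turned, to 0.25 (edgeR adjusted p = 0.870). Of the other glypicans and syndecans, 8 of 9 were tested (median log2 ratio 0.27). Of these, 1 was higher, Sdc3, and 0 were lower, where 12.4% of all genes tested were called. Sdc3, a syndecan of nerve cells and macrophages, rose from 24.8 ± 10.7 to 194.7 ± 66.1 CPM (2.98, edgeR adjusted p = 0.00397), and kept the call in every fit that left out 1 library. Gpc2 was called with the replicate block (2.90, edgeR adjusted p = 0.0421) and Gpc6 without WT replicate 1 (2.89, edgeR adjusted p = 0.0275), both higher. Gpc2 had 7, 0 and 5 counts in WT and 153, 7 and 16 in CgA-KO replicates 1, 2 and 3. CgA-KO replicate 1 thus stood out, and the rest overlapped.

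Afp, H19 and Gpc3 are known to be repressed together in the liver after birth by the zinc finger and homeobox protein ZHX2, and Afp also by ZBTB20 and ZFHX3. Zhx2 had a log2 ratio of -0.38 (edgeR adjusted p = 0.226), Zbtb20 one of -0.59 (edgeR adjusted p = 0.181) and Zfhx3 one of -0.24 (edgeR adjusted p = 0.470). On the list of these repressors and their further targets, 9 genes were tested (median log2 ratio -0.03). While 12.4% of all genes tested were called, 2 on this list were higher and 0 were lower. The 2 were Lpl, which encodes lipoprotein lipase and which also macrophages express (2.56, edgeR adjusted p = 0.00296), and the stearoyl-CoA desaturase gene Scd2 (1.73, edgeR adjusted p = 0.0186). Scd2 lost its call without WT replicate 2, WT replicate 3, CgA-KO replicate 1 or CgA-KO replicate 2, and Lpl kept it in all 6 such fits. Afp, H19 and Gpc3 differed in their highest library, which was CgA-KO replicate 3 for Afp, CgA-KO replicate 2 for H19 and WT replicate 2 for Gpc3.

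Of the other fetal liver and tumour genes, 11 of 17 were tested, with a median log2 ratio of 0.93. While 12.4% of all genes tested were called, 2 on this list were higher and 0 were lower. The 2 were Scd2 again and Pkm, the pyruvate kinase of fetal and dividing cells and of leukocytes. Pkm rose from 15.4 ± 5.07 to 64.4 ± 16.1 CPM (2.07, edgeR adjusted p = 0.00484). Igf2bp2, which encodes an RNA-binding protein named after Igf2 mRNA, had a log2 ratio of 1.23 (edgeR adjusted p = 0.0683). Lin28b was at 0 in all libraries, and Igf2bp1, Igf2bp3, Hmga2 and Sall4, genes of embryonic tissue and of some liver cancers, had at most 4 counts in any library.

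Sox9 encodes a transcription factor of bile duct cells, of progenitors and of some hepatocytes beside the portal tracts (chromosome 11 from 112782224 to 112787760). Sox9 reached 3.85, 3.53 and 3.60 CPM across WT replicates 1, 2 and 3, on 43, 83 and 85 counts. For Sox9, CgA-KO replicates 1, 2 and 3 gave 6.92, 7.71 and 4.71 CPM, on 149, 243 and 105 counts. The WT livers were nearly equal and all CgA-KO livers were above them. The means were 3.66 ± 0.169 and 6.44 ± 1.55 CPM (SD, n = 3 each), 1.76-fold apart. Its log2 ratio of 0.82 (standard error 0.28) missed the threshold in edgeR's quasi-likelihood test (adjusted p = 0.0860) and in DESeq2 (adjusted p = 0.0691). It stayed between 0.70 and 1.03 with each library left out, with an edgeR adjusted p from 0.0682 to 0.235, so Sox9 was not called in any of these fits.

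SOX9 acts downstream of Notch and YAP signals in duct cells. Of 18 genes of these pathways, 17 were tested, with a median log2 ratio of 0.33. Of these, 3 were higher and 0 were lower, where 12.4% of all genes tested were called. Hes1 and Hey1 are targets of Notch. Hes1 rose from 5.63 ± 1.28 to 13.8 ± 4.60 CPM (1.28, edgeR adjusted p = 0.0287) and Hey1 from 0.347 ± 0.0870 to 1.496 ± 0.533 CPM (2.13, edgeR adjusted p = 0.0281). The third was the cytokine gene Tgfb1 (2.00, edgeR adjusted p = 0.00484), which kept its call with each library left out. Hes1 kept it in 1 and Hey1 in 2 of these 6 fits: Hes1 without CgA-KO replicate 3, and Hey1 without WT replicate 1 or CgA-KO replicate 2. Neither was called with the replicate block or at 0.01. The receptor Notch2 had a log2 ratio of 0.01 (edgeR adjusted p = 0.989), its ligand Jag1 one of -0.52 (edgeR adjusted p = 0.368) and Yap1 one of -0.15 (edgeR adjusted p = 0.660).

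Prom1 encodes prominin 1, or CD133, a membrane protein of epithelial cells used to sort progenitor and tumour stem cells (chromosome 5 from 43993620 to 44102032). Prom1 reached 1.34, 0.596 and 0.339 CPM across WT replicates 1, 2 and 3, on 15, 14 and 8 counts. For Prom1, CgA-KO replicates 1, 2 and 3 gave 0.557, 2.76 and 1.34 CPM, on 12, 87 and 30 counts. CgA-KO replicate 2 was highest, and CgA-KO replicate 1 lay below WT replicates 1 and 2. Prom1 had a log2 ratio of 1.13 (standard error 0.69, edgeR adjusted p = 0.322). Omitting CgA-KO replicate 2 left 0.44 (edgeR adjusted p = 0.750).

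Epcam encodes the epithelial cell adhesion molecule of duct and progenitor cells (chromosome 17 from 87635979 to 87651129). Epcam reached 1.16, 0.851 and 0.508 CPM across WT replicates 1, 2 and 3, on 13, 20 and 12 counts. For Epcam, CgA-KO replicates 1, 2 and 3 gave 0.696, 2.85 and 0.941 CPM, on 15, 90 and 21 counts. As for Prom1, CgA-KO replicate 2 stood above the other 5 livers, and those 5 overlapped. Epcam had a log2 ratio of 0.88 (standard error 0.62, edgeR adjusted p = 0.387). It was 0.04 without CgA-KO replicate 2 (edgeR adjusted p = 0.976). Over the 6 libraries, the log2 CPM of Prom1 and Epcam had a Pearson correlation of 0.936, a description over points that share their libraries and depth. Cd44 had higher correlations with Igf2 (0.967) and Sox9 (0.956), while Igf2 and Cd44 had negative ones with Krt7 (-0.936 and -0.875). The genotypes did not overlap in Cd44, Igf2, Sox9 or Krt7. Their correlations thus include the genotype difference and do not show that the genes vary together within a genotype. The correlations of Krt19 with Prom1 and Epcam were 0.0785 and 0.201, and those of Krt7 were -0.358 and -0.209.

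Krt19 and Krt7 encode the keratins by which bile ducts are stained in tissue sections. Krt19 (chromosome 11 from 100140810 to 100148665) was at 0.269, 1.02 and 0.805 CPM in WT replicates 1, 2 and 3 and at 0.464, 1.08 and 0.896 CPM in CgA-KO replicates 1, 2 and 3. The genotypes overlapped almost fully, with 3 to 24 counts in WT and 10 to 34 counts in CgA-KO libraries. Krt19 had a log2 ratio of 0.17 (standard error 0.56, edgeR adjusted p = 0.878), and its sign changed without WT replicate 1 (-0.12) and without CgA-KO replicate 2 (-0.05). Krt7 (chromosome 15 from 101411043 to 101430313) was at 0.806, 1.45 and 0.889 CPM in WT replicates 1, 2 and 3, on 9, 34 and 21 counts. For Krt7, CgA-KO replicates 1, 2 and 3 gave 0.464, 0.603 and 0.538 CPM, on 10, 19 and 12 counts. Krt7 was thus lower in all CgA-KO livers than in any WT liver, and it was the only marker with that order. Its means were 1.05 ± 0.348 and 0.535 ± 0.0692 CPM (SD, n = 3 each), with a log2 ratio of -0.97 (standard error 0.45) that did not pass the threshold in edgeR's quasi-likelihood test (adjusted p = 0.193). Krt8 and Krt18, the keratin pair shared by ducts and hepatocytes, had log2 ratios of -0.62 and -0.38 and were not called (edgeR adjusted p = 0.460 and 0.639). WT replicate 1 stood out for both, at 363.7 and 311.9 CPM, and the rest overlapped.

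**Figure D3:**
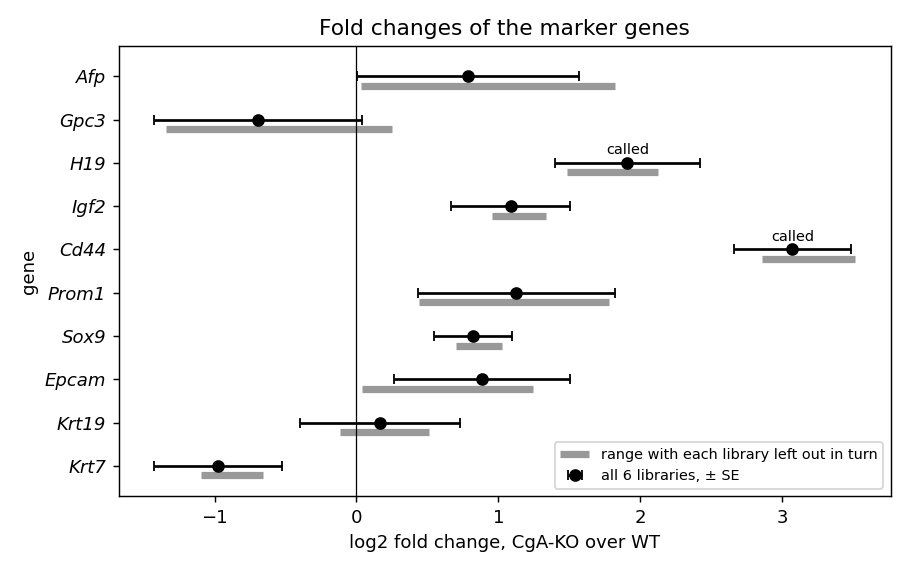
Log2 ratio of each marker, CgA-KO over WT (horizontal axis), from edgeR with all 6 libraries (points, ± SE) and its range over the 6 fits that each left out 1 library (grey bars). Cd44 and H19 are called, and the ranges of Gpc3 and Krt19 cross 0.

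Of 17 other genes of the bile duct, 11 were tested (median log2 ratio 0.45). In the CgA-KO group 1 rose and 0 fell, where 12.4% of all genes tested were called. The called gene was Ezr, which ties membrane proteins such as CD44 to the cell skeleton in epithelia and lymphocytes (1.503, edgeR adjusted p = 0.0236), and it lost the call without WT replicate 2, WT replicate 3, CgA-KO replicate 1 or CgA-KO replicate 2, and at a threshold of 0.01. DESeq2 called Ezr and also 1 lower gene, Onecut1, a transcription factor of ducts and hepatocytes (log2 ratio -1.65, DESeq2 adjusted p = 0.0267). Onecut1 was at 15.6, 17.1 and 81.5 CPM in WT and 11.5, 7.42 and 17.8 CPM in CgA-KO replicates 1, 2 and 3. WT replicate 3 thus stood out, the rest overlapped, and edgeR did not call Onecut1 (edgeR adjusted p = 0.119). Spp1, which encodes osteopontin, a secreted protein of duct cells and macrophages and a ligand of CD44, was at 24.5, 15.4 and 13.3 CPM in WT replicates 1, 2 and 3. Spp1 in CgA-KO replicates 1, 2 and 3 reached 10.1, 61.2 and 22.1 CPM, so that replicate 2 stood out and the rest overlapped (log2 ratio 0.83, edgeR adjusted p = 0.364). Cldn7, an epithelial tight junction gene that did not pass the filter, had 20 counts in CgA-KO replicate 2 and at most 8 in any other library.

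CgA-KO replicate 2 was the highest of the 6 libraries for 5 of the 10 markers, H19, Prom1, Sox9, Epcam and Krt19, and for 8 of the 11 tested genes of the bile duct list. Over all genes tested it was the highest for 20.8%. This was seen after the values were known and is given without a test. The same library also held the most counts of the T cell genes Cd3e, with 679 against 96 and 107 in CgA-KO replicates 1 and 3, and Thy1, with 1601 against 128 and 102. The part of either in the level of Prom1 and Epcam was not tested.

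**Figure D4:**
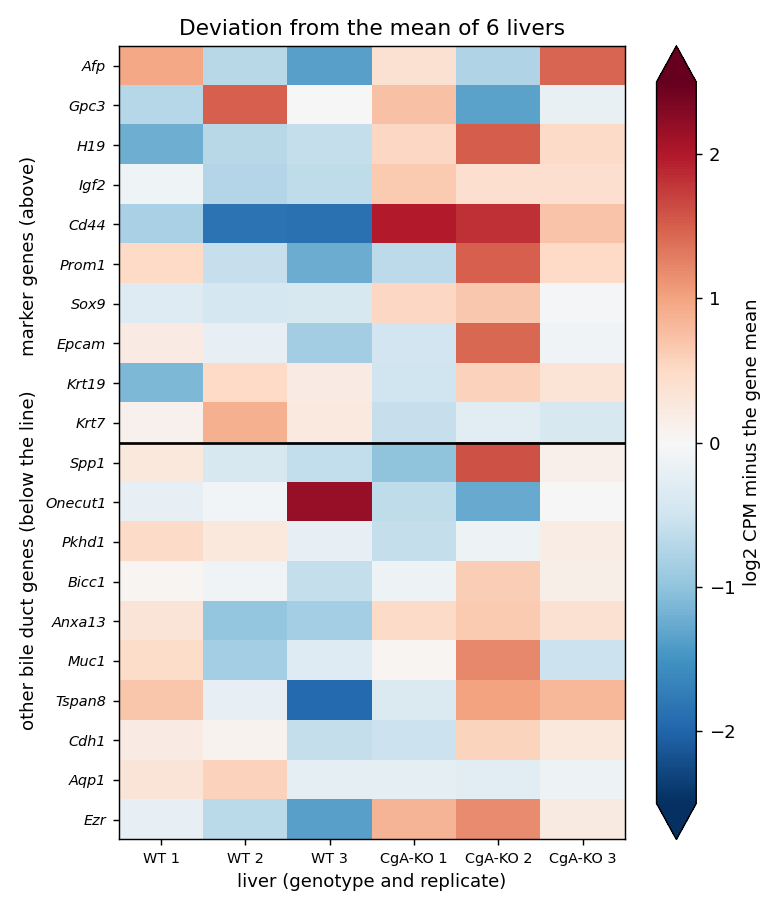
Log2 CPM minus the mean over the 6 livers (colour, red above and blue below) for the 10 markers above the line and 10 of the 11 tested genes of the bile duct list below it, with 1 column for each liver. Cd44, H19, Igf2 and Sox9 are higher in each CgA-KO liver than in any WT liver, as are Anxa13 and Ezr below the line. Krt7 is lower in each CgA-KO liver than in any WT liver. Prom1, Epcam and Spp1 are reddest in CgA-KO replicate 2.

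Of the other progenitor genes, 12 of 15 were tested, with a median log2 ratio of 0.02. Of these, 1 was higher and 1 lower, where 12.4% of all genes tested were called. The gene that rose was Thy1 (4.03, edgeR adjusted p = 0.0350), which is also a T cell gene and was called in 1 of the 6 fits with a library left out, that without CgA-KO replicate 3. DESeq2, limma-voom, the replicate block, both other filters and library size alone did not call Thy1. The gene that fell was Hhex, a homeobox gene of the early liver bud that adult hepatocytes and endothelium keep, from 116.7 ± 4.43 to 52.6 ± 8.20 CPM (-1.15, edgeR adjusted p = 0.00812), a call kept in all 6 fits. Of 8 stellate and fibroblast markers, Thy1 and Dcn were higher and 0 were lower, and of 4 mesothelial markers, from the cells that cover the liver and carry keratins 7 and 19, 0 were called. Of 5 cell division genes, 2 were higher, Ccnb1 (2.70, edgeR adjusted p = 0.0331) and Top2a (2.64, edgeR adjusted p = 0.0421), and 0 were lower. Ccnb1 kept its call without WT replicate 1 or CgA-KO replicate 1, and Top2a without WT replicate 1 alone. Neither was called with the replicate block or at 0.01, and Top2a was not called with library size alone or with either other filter.

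Ordered by CPM per kilobase of exon, Cd44 and Sox9 led in both genotypes. In WT livers Gpc3, Epcam, Krt19, Afp, H19, Krt7, Igf2 and Prom1 followed, from 0.530 down to 0.106 CPM per kilobase. In CgA-KO livers the order after Cd44 and Sox9 was Epcam, H19, Afp, Krt19, Gpc3, Igf2, Prom1 and Krt7, from 0.682 down to 0.0759 CPM per kilobase. Cd44 and Sox9 in CgA-KO livers were the only neighbours in these orders whose ranges over the 3 livers did not overlap. The exon length is that of all annotated exons of a gene joined, which may be longer than the transcripts present.

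The genes whose course over the 6 libraries was most like that of a marker were sought among all genes tested, by the root mean square difference of log2 CPM after each gene's mean was removed. For Cd44 they included Ifi205 (0.197) and Podnl1 (0.243). For Epcam they were Plpp7 (0.0959), Gsn (0.225) and Anxa5 (0.238), and for Prom1 Plat (0.158), Plac8 (0.214) and Apol11b (0.237). None of the 3 closest genes of any marker was another marker. For Sox9 the closest was Cadm3 (0.0548), for Igf2 Tnip1 (0.0631), for H19 Cables1 (0.189), for Afp Ttc39a (0.282), for Gpc3 Leap2 (0.254), for Krt19 Zbtb11os1 (0.221) and for Krt7 Tm7sf2 (0.0367). With 6 libraries and many genes to choose from, close matches arise readily, and the measure is given as a description.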

How the data were processed

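Poly(A)-selected RNA of 6 livers was sequenced, 1 library per mouse. The authors deposited whole-number counts per gene symbol, not normalized, made with Salmon 1.4.0 against the GRCm38 mouse transcriptome. How transcripts were summed to genes is not given in the sources used here. All columns were matched to samples.

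The counts were tested with edgeR 4.0.16 in R 4.3.3 (filterByExpr with a minimum count of 10, TMM factors, robust quasi-likelihood fit, two-sided, Benjamini-Hochberg over 13867 genes, threshold 0.05). DESeq2 1.42.0 and limma-voom (limma 3.58.1) were alternatives. Standard errors are the fitted log2 ratio divided by the square root of F, an approximation. Scripts were tested on simulated data. Log2 CPM used a prior count of 2. Single values were compared by exact permutation tests. Lists, 17 beside the markers, were described by counts only, to be read against the 12.4% of all genes tested that were called. Named genes were all markers, up to 5 called genes per list by size of change, the 3 genes whose course was most like each marker's, and 16 genes fixed for their role. Of the genes so named, 2 are not reported here. The markers, lists and tests were chosen with earlier results of these data known. P-values measure the spread between these mice only, and floors cover counting error only. Coordinates and exon lengths are from GENCODE M21 (GRCm38), sequences from RefSeq. Strand was not stated for the counting, so reads of opposite-strand genes annotated over Afp, Gpc3, H19, Igf2, Cd44, Prom1 and Krt7 cannot be told apart. Of these genes, Igf2os over Igf2 had a row with 4 counts in total. A630012P03Rik over Gpc3 and Gm23731 over Cd44 had rows with 0, and the others had no row. Figures were drawn with matplotlib 3.10.9.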

Additional observations from a re-analysis of the deposited data

How the results depend on the processing

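The 14 alternatives were DESeq2, library size alone, upper-quartile factors, a total of at least 1 count, at least 1 count in each library, a replicate block, limma-voom, a threshold of 0.01 and 6 fits that each left out 1 library. Cd44 was called in each of them. H19 was not called with limma-voom (log2 ratio 1.82) or the replicate block (1.88), or with any library left out (1.48 to 2.13), nor at 0.01. The number of markers called was thus 1 in place of 2 under those settings, and 1 in each fit that left out a library. The other 8 markers were not called under any alternative. Gpc3 turned from -0.70 to 0.25 without WT replicate 2 and ranged from -1.34 to 0.25. Krt19 was at -0.12 when WT replicate 1 was omitted and at -0.05 when CgA-KO replicate 2 was, and ranged up to 0.51. The number of genes called over all genes was 1726. It was 2592 with DESeq2, 360 at 0.01 and 394 (without WT replicate 3) to 2126 (without WT replicate 1) with 1 library left out. Scaling by library size alone moved the median of all genes to 0.26 (log2) and turned no marker. The counts for the 17 lists moved by over 1.5 times in 74 of 238 comparisons with an alternative. At 0.01, 12 of the 34 list genes called kept the call, the same genes that kept it in every fit with 1 library left out. Same-numbered livers had correlations of their deviations of 0.199, 0.0127 and -0.0659, and other pairs of livers ran from -0.264 to 0.234. With 3 livers per genotype, these values cannot decide whether the numbers pair the mice. The replicate block changed the call of no marker other than H19. The low counts of 8 markers limit what could be detected. The cause of these changes was not tested.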
